A study of Mus musculus with 3 samples.

Results

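Granzyme A (*Gzma*), granzyme K (*Gzmk*), granzyme M (*Gzmm*), perforin (*Prf1*) and the granule genes *Nkg7*, *Ctsw* and *Srgn* were followed across the lymphocytes of a mouse tumor. They were chosen by symbol and are 7 of the 32285 genes counted. MC38-Ova cells, a colon adenocarcinoma line bearing ovalbumin, were grown under the skin of WT C57BL/6 Kaede mice, in which every cell holds Kaede, a green protein made permanently red by violet light. Each injection held 250000 cells, the tumors carry an isotype control treatment in their labels, light was given on day 13, and tumors were taken on day 15, 48 h later. Live CD45+ TER119- Kaede+ cells were sorted without CD11b+NK1.1- myeloid cells, and 3' single-cell RNA libraries were made of Kaede-green cells, which had entered the tumor after the light (2 libraries, Kaede-green 1 and Kaede-green 2), and of Kaede-red cells, which had been there before it (1 library). A red cell may have arrived at any time before day 13, so color is not an age.

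Cytotoxic lymphocytes kill by emptying granules onto a target cell. Perforin makes pores in the target's membrane, and granzymes are serine proteases that pass through and cut proteins inside. Serglycin, the product of *Srgn*, is the proteoglycan core that holds these cargoes in the granule. NKG7 is a granule membrane protein needed for full degranulation, and cathepsin W, the product of *Ctsw*, is a cysteine protease found mainly in NK cells and CD8 T cells. Granzyme A and granzyme K are close relatives with trypsin-like cutting, whereas granzyme M prefers to cut after methionine or leucine.

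Cells were gated by raw UMIs (unique molecular identifiers, one per captured RNA molecule). NK cells held at least 1 UMI of *Ncr1* and at most 1 of *Cd3e*, and those with at least 2 of *Rora* and 0 of *Eomes* were taken out as ILC-like cells. T cells held at least 2 UMIs of *Cd3e* and were CD8 T cells with *Cd8a* and *Cd8b1*, CD4 T cells with *Cd4* and no *Foxp3*, or Treg with *Foxp3*. This gave 7818 NK cells, 490 ILC-like cells, 9100 CD8 T cells, 1018 CD4 T cells and 1717 Treg over the 3 libraries. A further 611 cells met more than 1 T cell rule and 9865 met none, and these were left out. The NK, CD4 T and Treg labels held against markers outside the gates. The summed level of 6 NK genes was 5784 to 7569 CPM (a gene's UMIs per 1000000 UMIs of a group) in NK cells against 681 to 969 CPM in CD8 T cells, *Cd40lg* was 62.6 to 80.4 CPM in CD4 T cells against 4.10 to 5.69 CPM in Treg, and 3 Treg genes summed to 3036 to 3578 CPM in Treg against 801 to 1408 CPM in CD4 T cells. The ILC genes *Il7r* and *Gata3* summed to 103 to 208 CPM in ILC-like cells, against 44.6 to 91.3 CPM in NK cells and 294 to 301 CPM in CD8 T cells. CD4 T cells held 341 to 432 CPM and Treg 254 to 404 CPM. These genes were thus higher in ILC-like than in NK cells but did not mark ILC-like cells among all types. The 6 NK genes summed to 4221 to 4349 CPM in ILC-like cells, below the NK cells and above the CD8 T cells.

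*Gzma* and *Gzmk* lie close together in the genome and had unlike patterns across the cell types, so the stretch around each start site is shown first. *Gzma* (ENSMUSG00000023132) spans positions 113093825 to 113100981 of chromosome 13 (GRCm38 and GENCODE vM21, minus strand). *Gzmk* (ENSMUSG00000042385) spans 113171608 to 113225908 on the same strand, 70626 bases away with 3 annotated genes between them, and overlaps *Esm1* on the other strand. *Prf1* and *Nkg7*, which had the most alike patterns of the 7 genes, are shown for comparison. The sequences are from RefSeq (GRCm38.p6), 250 bases before to 50 after the start site, and run 5′ to 3′ on the gene's strand. Capitals mark exact matches, on either strand, to the T-box letters AGGTGT, RUNX TGTGGT, ETS GGAAGT or AP-1 TGANTCA.
Gzma, chr13:113100932-113101231, minus strand: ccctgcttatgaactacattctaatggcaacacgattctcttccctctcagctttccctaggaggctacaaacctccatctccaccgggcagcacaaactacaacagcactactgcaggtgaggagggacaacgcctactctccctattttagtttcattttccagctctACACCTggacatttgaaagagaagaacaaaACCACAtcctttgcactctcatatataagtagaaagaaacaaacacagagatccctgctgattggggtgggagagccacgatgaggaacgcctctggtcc
Gzmk, chr13:113180916-113181215, minus strand: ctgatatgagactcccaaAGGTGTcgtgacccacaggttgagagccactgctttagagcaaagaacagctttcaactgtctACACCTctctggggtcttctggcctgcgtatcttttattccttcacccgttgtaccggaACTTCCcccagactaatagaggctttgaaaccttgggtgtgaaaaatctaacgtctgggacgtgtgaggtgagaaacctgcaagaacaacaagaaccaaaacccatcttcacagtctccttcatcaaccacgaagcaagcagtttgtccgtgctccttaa
Prf1, chr10:61297586-61297885, plus strand: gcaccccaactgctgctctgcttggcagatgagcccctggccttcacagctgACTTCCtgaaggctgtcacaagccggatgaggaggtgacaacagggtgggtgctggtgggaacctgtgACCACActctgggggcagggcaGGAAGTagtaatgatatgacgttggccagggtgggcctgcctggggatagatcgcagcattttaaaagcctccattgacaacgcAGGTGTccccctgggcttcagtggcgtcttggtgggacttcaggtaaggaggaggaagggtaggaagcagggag
Nkg7, chr7:43436888-43437187, plus strand: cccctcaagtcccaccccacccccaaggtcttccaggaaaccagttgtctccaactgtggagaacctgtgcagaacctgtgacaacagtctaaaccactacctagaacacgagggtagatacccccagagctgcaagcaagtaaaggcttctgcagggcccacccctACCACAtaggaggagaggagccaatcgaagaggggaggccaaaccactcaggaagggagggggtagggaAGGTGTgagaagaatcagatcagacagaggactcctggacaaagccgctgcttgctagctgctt
All 4 windows held the T-box letters, which 13.7% of the 32851 promoters of the table hold. The table has 8 windows for 6 of the 7 genes, and the other 4, of *Gzmm* and *Srgn*, did not hold these letters. The *Gzma*, *Prf1* and *Nkg7* windows also held the RUNX letters (16.8% of promoters), and the *Gzmk* and *Prf1* windows the ETS letters (23.8%). None of the 4 held the AP-1 letters (7.81%). A match describes the letters and is not a shown binding site. The *Gzmk* start site used by RefSeq lies inside the GENCODE vM21 span of the gene. Of the other genes, *Prf1* (ENSMUSG00000037202) spans 61297833 to 61304680 of chromosome 10 and *Gzmm* (ENSMUSG00000054206) 79689020 to 79695261 of the same chromosome, both on the plus strand. *Srgn* (ENSMUSG00000020077) spans 62493833 to 62527451 of chromosome 10 on the minus strand, *Nkg7* (ENSMUSG00000004612) 43437073 to 43438249 of chromosome 7 on the plus strand, and *Ctsw* (ENSMUSG00000024910) 5465043 to 5468507 of chromosome 19 on the minus strand, where it overlaps *Fibp* on the other strand.

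The deposited tables held 10498 and 12327 cells in the Kaede-green libraries and 11956 in the Kaede-red library, with 87193225 to 175848894 UMIs per library. Pairs of libraries shared 20 to 36 cell barcodes. Depth moved with color, but not alike in all types. The median NK cell held 6070 and 7954 UMIs in the Kaede-green libraries and 17360 in Kaede-red. ILC-like and CD8 T cells were also deepest in Kaede-red. Treg were shallowest there, at a median of 6877 UMIs against 9038 and 9844 in the Kaede-green libraries. CD4 T cells held 5911 UMIs in Kaede-red against 5704 and 6806. Where 3 values follow each other, the first is Kaede-green 1, the next Kaede-green 2 and the last Kaede-red. These genes also had a background level. B cells (*Cd79a* of at least 2, no *Cd3e*, no *Ncr1*), which should lack *Gzma*, held it at 433 and 195 CPM in the Kaede-green libraries (200 and 97 cells) and at 14.4 CPM in the 7 B cells of Kaede-red. B cells are therefore given below as a background level, except for *Srgn*, which many blood cells make. In Kaede-green 1, with cells thinned to 2000 UMIs, the tenth of B cells with the most *Gzma* held 82.0% of its UMIs. The most in a B cell there was 14 UMIs. Whether this background is free RNA or RNA of another cell in the same droplet was not tested.

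**Figure D1:**
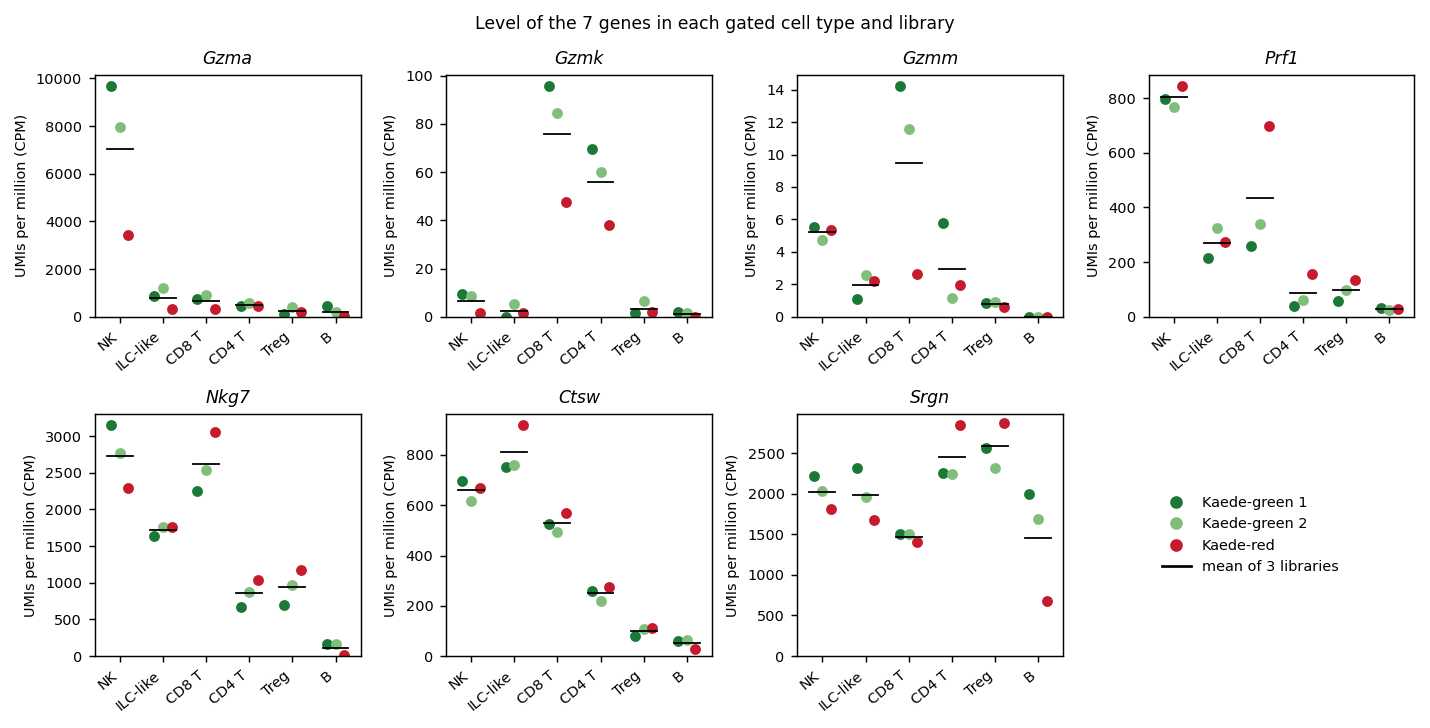
Level of each gene in CPM (linear axes from 0) in the 5 gated types and in B cells, as 1 point per library and a line at the mean of 3 libraries. Gzma stood highest in NK cells, Gzmk in CD8 T and CD4 T cells, and Ctsw stepped down from ILC-like cells to Treg.

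*Gzma* was highest in NK cells. NK cells held 9683, 7951 and 3443 CPM. ILC-like cells held 855, 1217 and 313 CPM, and CD8 T cells 729, 931 and 322 CPM. In every library the NK value was the highest of the 5 types, and ILC-like and CD8 T cells lay close to each other. CD4 T cells held 440, 593 and 460 CPM and Treg 135, 423 and 204 CPM, against 433, 195 and 14.4 CPM in B cells. In Kaede-green 1 the CD4 T cells were level with the B cells and the Treg below them. In Kaede-green 2 and in Kaede-red, which had only 7 B cells, both types lay above the B cells.

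*Gzmk* was highest in CD8 T and CD4 T cells. CD8 T cells held 95.7, 84.4 and 47.7 CPM and CD4 T cells 69.5, 59.9 and 38.1 CPM. NK cells held 9.41, 8.74 and 1.72 CPM, Treg 1.53, 6.73 and 1.97 CPM, and ILC-like cells 0, 5.20 and 1.47 CPM. The CD8 T and CD4 T values lay above all values of the other 3 types. B cells held 2.17, 1.76 and 0 CPM, so the ILC-like and Treg values were near the background level. *Gzmm* was rare everywhere. CD8 T cells held 14.2, 11.6 and 2.64 CPM (350, 452 and 168 UMIs) and NK cells 5.51, 4.72 and 5.36 CPM (103, 115 and 305 UMIs). CD4 T cells, ILC-like cells and Treg held 1 to 16 UMIs of *Gzmm* per library, and the B cells none.

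*Prf1* was even over the libraries in NK cells and uneven in CD8 T cells. NK cells held 795, 768 and 845 CPM, and CD8 T cells 260, 341 and 697 CPM. ILC-like cells held 213, 323 and 272 CPM. Treg (57.1, 96.7 and 136 CPM) and CD4 T cells (41.1, 60.2 and 156 CPM) lay below these types in every library and above the 24.6 to 30.4 CPM of B cells. *Nkg7* was high in the same 3 types. NK cells held 3148, 2771 and 2289 CPM and CD8 T cells 2251, 2539 and 3054 CPM, so that the order of these types in Kaede-red was the reverse of that in the Kaede-green libraries. ILC-like cells held 1636, 1759 and 1760 CPM. Treg (696, 969 and 1180 CPM) and CD4 T cells (667, 880 and 1041 CPM) held several times the 162 to 170 CPM of the B cells of the Kaede-green libraries.

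*Ctsw* gave close values in the 3 libraries. ILC-like cells held 751, 761 and 919 CPM, NK cells 695, 618 and 667 CPM and CD8 T cells 524, 492 and 568 CPM. CD4 T cells held 261, 221 and 275 CPM, and Treg 79.0, 107 and 112 CPM against 28.8 to 65.0 CPM in B cells. *Srgn* was high in all types, and Treg (2561, 2314 and 2873 CPM) and CD4 T cells (2253, 2240 and 2848 CPM) had the highest means. CD8 T cells, at 1502, 1507 and 1404 CPM, were the lowest of the 5 types in every library. NK cells held 2223, 2033 and 1809 CPM and ILC-like cells 2314, 1956 and 1676 CPM.

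The order of the types was read from 1 fit across all genes over 15 sums, 5 types in 3 libraries. Of the 28 steps between neighbors in the order of mean CPM, 11 passed the threshold (adjusted p under 0.05, edgeR quasi-likelihood test), where 2.89% (ILC-like against NK cells) to 43.9% (NK cells against Treg) of all genes were called between the same pairs of types. For ILC-like cells this share was 18.1% against CD8 T cells, 28.7% against CD4 T cells and 35.2% against Treg, and for NK against CD4 T cells 35.5%. For *Gzma* the step from NK to ILC-like cells passed, those to CD8 T and on to CD4 T cells did not (adjusted p = 0.754 and 0.461, edgeR), and that from CD4 T cells to Treg did. For *Gzmk* only the step from CD4 T to NK cells passed, at a log2 difference of 3.14 (adjusted p = 1.24e-05, edgeR). None of the 4 steps of *Gzmm* passed. For *Prf1* the steps from NK to CD8 T cells and from ILC-like cells to Treg passed, and for *Nkg7* those from CD8 T to ILC-like cells (adjusted p = 0.0131, edgeR) and from ILC-like cells to Treg. For *Ctsw* all steps below NK cells passed, and for *Srgn* only the last, from ILC-like to CD8 T cells (log2 difference 0.41, adjusted p = 0.0219, edgeR).

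NK cells differed from CD8 T cells in 5 of the 7 genes, 4 higher and 1 lower, where 28.5% of all 11444 genes tested were called. *Gzma* was 11.2-fold higher in NK cells, with a within-library log2 ratio of 3.42 ± 0.32 (SD, n = 3 libraries, adjusted p = 6.81e-06, edgeR). *Gzmk* was 13.0-fold lower, with a log2 ratio of -3.80 ± 0.86 (adjusted p = 1.51e-06, edgeR). Both calls held without any 1 library. *Prf1* was higher in NK cells, by log2 ratios of 1.61 and 1.17 in the Kaede-green libraries and 0.28 in Kaede-red (adjusted p = 0.00586, edgeR). *Srgn* (0.45 ± 0.10, adjusted p = 0.00466, edgeR) and *Ctsw* (0.32 ± 0.09, adjusted p = 0.0293, edgeR) were higher in NK cells in 3 of 3 libraries. These 3 calls were lost without Kaede-green 1 (adjusted p of 0.132 for *Prf1*, 0.0683 for *Srgn* and 0.0802 for *Ctsw*, edgeR) and without Kaede-green 2 (0.0685, 0.0908 and 0.172). That of *Ctsw* was also lost with doublets kept (0.0549) and at 2000 UMIs per cell (0.06), and with no library term those of *Prf1* (0.153) and *Ctsw* (0.101) were. *Nkg7* (adjusted p = 0.595, edgeR) and *Gzmm* (adjusted p = 0.362, edgeR) did not pass, and their ratios turned sign in Kaede-red. Without Kaede-red, *Nkg7* was higher in NK cells by 0.32 on the log2 scale (adjusted p = 0.0385, edgeR) and *Gzmm* lower, at -1.32 (adjusted p = 0.000153, edgeR).

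ILC-like cells held less of 3 of the 7 genes than NK cells and more of none, where 1.15% of all genes were called lower and 1.74% higher. *Gzma* had a log2 ratio of -3.22 ± 0.45 (adjusted p = 0.000158, edgeR) and *Prf1* of -1.59 ± 0.32 (adjusted p = 0.00346, edgeR). *Nkg7* had one of -0.66 ± 0.28 (adjusted p = 0.0178, edgeR). *Ctsw* was 0.29 ± 0.17 higher and *Srgn* 0.04 ± 0.09 lower on this scale, and neither passed, nor did *Gzmk* (adjusted p = 0.535, edgeR) or *Gzmm* (adjusted p = 0.481, edgeR). The *Prf1* call was lost without Kaede-green 1 (adjusted p = 0.101, edgeR), and that of *Nkg7* without Kaede-green 1 (0.138) or Kaede-green 2 (0.283). Both were lost with no library term (0.0964 for *Prf1* and 0.0748 for *Nkg7*).

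CD4 T cells held less *Prf1*, *Nkg7*, *Ctsw* and *Gzmm* and more *Srgn* than CD8 T cells, 5 of 7 genes where 23.2% of all genes were called, 13% higher and 10.2% lower. The log2 ratio was -2.44 ± 0.25 for *Prf1* (adjusted p = 7.74e-05, edgeR), -1.61 ± 0.12 for *Nkg7* (adjusted p = 1.55e-05, edgeR) and -1.07 ± 0.08 for *Ctsw* (adjusted p = 3.48e-05, edgeR). *Srgn* was higher by 0.73 ± 0.26 (adjusted p = 0.00208, edgeR), a call lost without Kaede-green 2 (adjusted p = 0.0529, edgeR). The *Gzmm* call (adjusted p = 0.0488, edgeR) rested on 16, 4 and 3 UMIs in CD4 T cells and was lost without Kaede-green 1 (0.119) or Kaede-green 2 (0.408), with stricter gates (0.0685) and with no library term (0.0722). *Gzmk* was not called (-0.42 ± 0.09, adjusted p = 0.205, edgeR), and passed without Kaede-red (adjusted p = 0.0393, edgeR), with no filter (0.0228), at 2000 UMIs per cell (0.0132) and in a fit of these 2 types alone (0.00184). *Gzma* was lower in CD4 T cells of both Kaede-green libraries and higher in Kaede-red and did not pass (adjusted p = 0.461, edgeR). With stricter gates its log2 difference was -1.64 (adjusted p = 0.00141, edgeR), and at 2000 UMIs per cell -1.33 (adjusted p = 0.000333, edgeR).

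Treg held less *Gzmk*, *Ctsw* and *Gzma* than CD4 T cells, 3 of 7 genes where 21.8% of all genes were called, 11.2% lower and 10.6% higher. *Gzmk* had a log2 ratio of -4.26 ± 1.13 (adjusted p = 3.95e-05, edgeR) and *Ctsw* of -1.35 ± 0.34 (adjusted p = 9.91e-06, edgeR), lower in 3 of 3 libraries each. *Gzma* had one of -1.12 ± 0.61 (adjusted p = 0.0378, edgeR). This call was lost without Kaede-green 1 (adjusted p = 0.144, edgeR) or Kaede-green 2 (0.108), with stricter gates (0.0682) and with no library term (0.2). In Kaede-green 1 the CD4 T cells were level with the B cells in *Gzma* and the Treg below them. Both types lay above the B cells in Kaede-green 2 and Kaede-red. *Nkg7*, *Srgn*, *Prf1* and *Gzmm* did not pass (adjusted p of 0.661, 0.803, 0.540 and 0.142, edgeR). Without Kaede-red, *Prf1* was higher in Treg by 0.57 (adjusted p = 0.0236, edgeR) and *Gzmm* lower, at -1.84 (adjusted p = 0.0336, edgeR). *Prf1* also passed with stricter gates (1.09, adjusted p = 0.0171, edgeR), and *Gzmm* with no filter (0.0446) and in DESeq2 (0.0496).

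**Figure D2:**
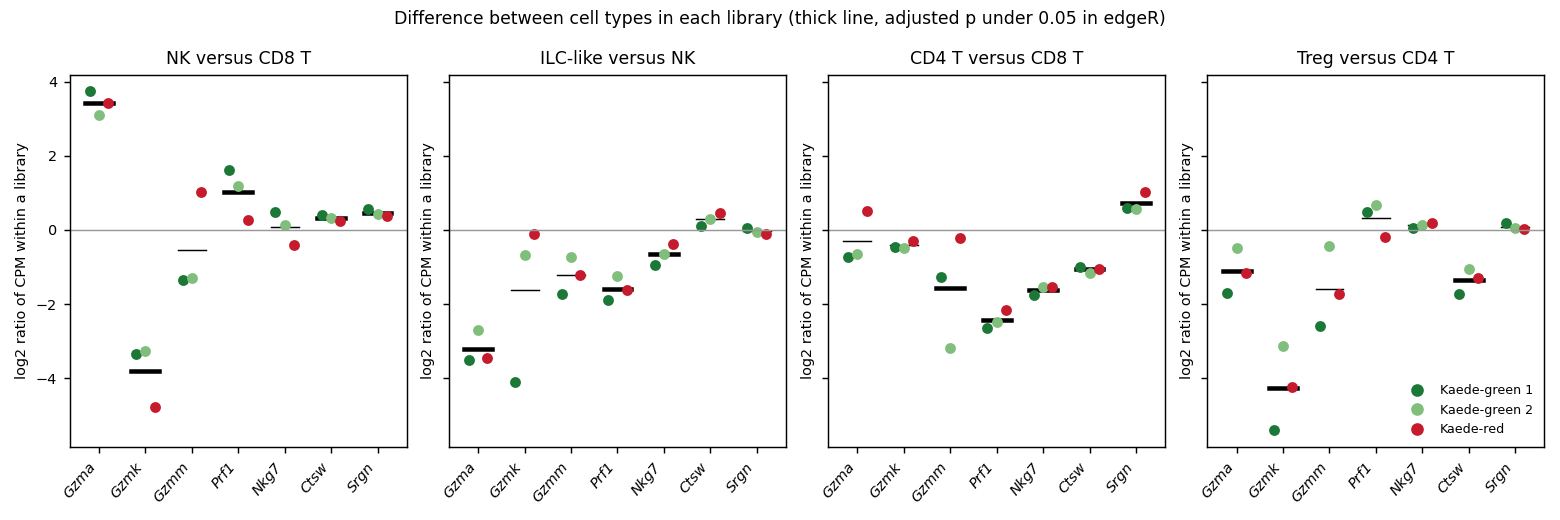
Log2 ratio of CPM (0.5 added to each count) between 2 cell types within each library, 1 point per library, for 4 comparisons. The line is the mean of 3 libraries and is thick where the adjusted p was under 0.05 in edgeR, and the leftmost panel shows the Gzmm and Nkg7 points of Kaede-red on the other side of 0 from those of Kaede-green. The Gzmk point of ILC-like cells in Kaede-green 1 compares 0 UMIs.

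Shares of cells with a UMI were read at 2000 UMIs per cell, to which deeper cells were thinned, with exact 95% binomial intervals that cover counting error only. Thinning left out 4 cells in all, 2 of them CD8 T cells. *Gzma* was found in 94.2%, 91.6% and 74.2% of NK cells, against 97.5%, 98.3% and 89.5% unthinned. B cells, at median depths of 4014, 4823 and 4975 UMIs before thinning, held it in 18.0% (interval 12.9% to 24%), 35.1% (25.6% to 45.4%) and 0 of 7 cells. Treg, at 13.1% and 30.1% in the Kaede-green libraries and medians of 9038 and 9844 UMIs, lay below their B cells, with overlapping intervals. By these shares *Gzma* in Treg was not told apart from background. Unthinned, the shares were 45.9% and 77.1% of Treg against 33% and 59.8% of B cells. The part of depth in these comparisons with the shallower B cells was not tested. At 2000 UMIs per cell, Treg of Kaede-green 2 held 0.740 *Gzma* UMIs per cell with up to 42 in a cell, against 0.505 and up to 5 in B cells. CD4 T cells (21.9% and 40.1%) lay within the intervals of the B cells. CD8 T cells of Kaede-green 1, at 32.9% (30.9% to 34.9%), lay above their B cells, whereas those of Kaede-green 2, at 43.5%, lay within the interval. The same held for ILC-like cells, at 35.2% in Kaede-green 1 and 45.1% in Kaede-green 2.

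The *Gzma* UMIs of CD8 T cells sat in few cells, as did those of ILC-like cells, CD4 T cells and Treg. The tenth of CD8 T cells with the most *Gzma* held 78.5%, 71.9% and 94.9% of its thinned UMIs, against 28.6%, 29.6% and 42.7% for the tenth of NK cells with the most. By this measure ILC-like cells gave 81.9%, 72.5% and 93.5%, CD4 T cells 80.1%, 69.9% and 96.7%, and Treg 89%, 72.9% and 100%. The last value was forced, since only 8.92% of Kaede-red Treg held *Gzma*. B cells gave 82.0% in Kaede-green 1 and 49.0% in Kaede-green 2. The concentration was thus not particular to CD8 T cells. The measure also depends on the share of cells with *Gzma*, which was 74.2% to 94.2% in NK cells. In Kaede-red this share was 13.2% of CD8 T, 16.3% of ILC-like and 11.2% of CD4 T cells, so their values could not be low either. How far the contrast with NK cells goes beyond these shares was not tested. *Gzmk* was found in 17.5%, 17.3% and 11% of CD8 T cells and in 10.3%, 9.86% and 6.83% of CD4 T cells. NK cells (1.57%, 2.00% and 0.416%) lay within the intervals of the B cells (1.00%, 0% and 0%, with 0 of 97 cells allowing up to 3.73% by the exact interval), so by this share *Gzmk* in NK cells was not told apart from background. By level, NK cells of Kaede-green 1 (9.41 CPM, exact Poisson interval 8.07 to 10.9) lay above their B cells (2.17 CPM, 0.263 to 7.85), and in Kaede-green 2 the intervals overlapped. *Gzmm* was found in at most 2.52% of the cells of any type and library.

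*Prf1* was found in 67.0%, 64.7% and 64.5% of NK cells, and in 21.0%, 29.1% and 44.7% of CD8 T cells. In ILC-like cells it was found in 35.2%, 33.3% and 31.7%. Treg (9.56%, 11.7% and 13.2%) lay above the 4.00% and 5.15% of B cells in the Kaede-green libraries, but the intervals overlapped. They were 6.75% to 13.0% against 1.74% to 7.73% in Kaede-green 1, and 9.35% to 14.3% against 1.69% to 11.6% in Kaede-green 2. CD4 T cells (5.54%, 9.13% and 9.76%) lay within the intervals of the B cells of the Kaede-green libraries. *Nkg7* was found in 96.5% to 97.8% of NK cells, 92.4% to 97.4% of CD8 T cells and 87.9% to 93.1% of ILC-like cells. Its 42.3% to 63.7% of Treg and 47.4% to 63.4% of CD4 T cells lay above the 13.0% and 26.8% of B cells. *Ctsw* was found in 72.5% to 82.1% of ILC-like cells, 69.3% to 73.5% of NK cells, 61.3% to 66.9% of CD8 T cells and 27.2% to 32.7% of CD4 T cells. Its shares of 11.2% and 17.7% in Treg of the Kaede-green libraries lay within the intervals of the B cells (8% and 11.3%).

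**Figure D3:**
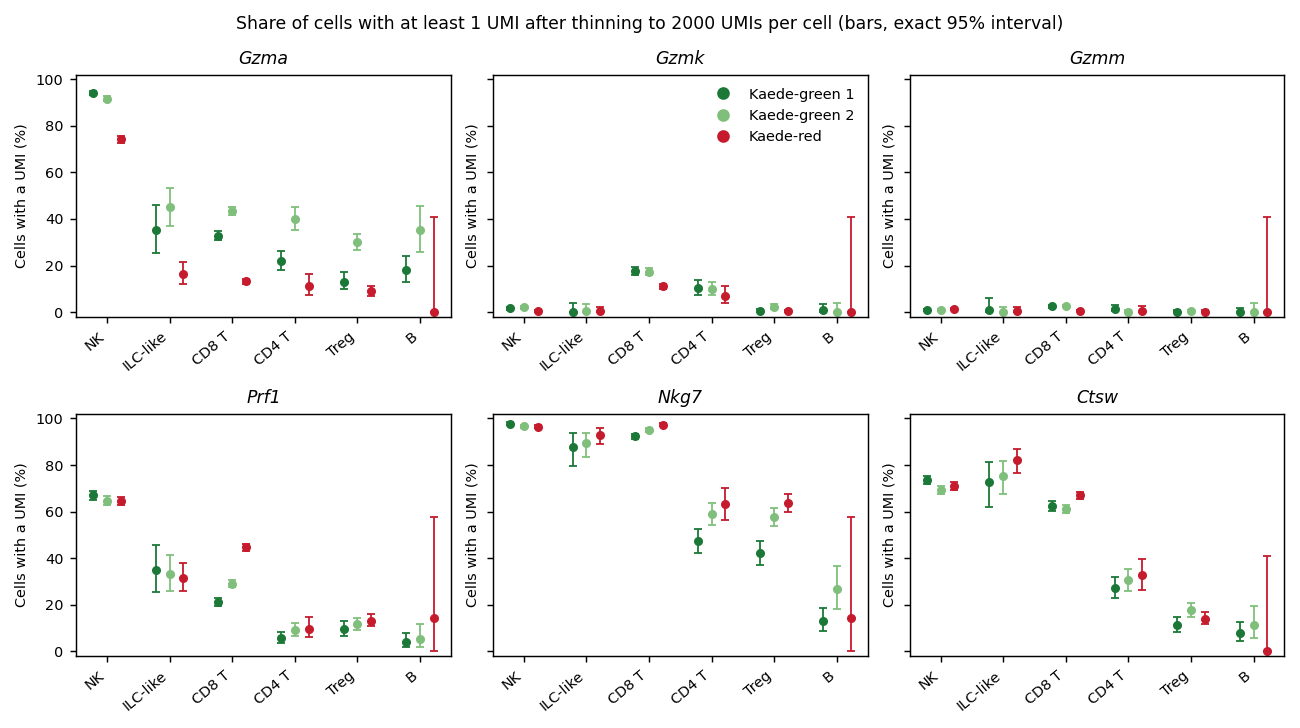
Share of cells with at least 1 UMI of a gene after thinning to 2000 UMIs per cell, by cell type, with exact 95% binomial intervals as bars and 1 point per library. B cells show the background level (200, 97 and 7 cells), which reaches 35.1% for Gzma in Kaede-green 2.

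Within CD8 T cells, those with a *Gzmk* UMI held more *Gzma*. The split gave 761, 1102 and 1113 cells with *Gzmk* and 1452, 1874 and 2798 without. *Gzma* stood at 1346, 1685 and 802 CPM in cells with *Gzmk* and at 489, 558 and 156 CPM in cells without, so the groups did not overlap, and the cells with *Gzmk* lay above the B cells of every library. Of the other 6 genes 4 were called higher with *Gzmk* and 0 lower, where 7.80% of all genes were called higher and 7.25% lower. The log2 ratio was 1.80 ± 0.48 for *Gzma* (adjusted p = 6.38e-06, edgeR), 0.43 ± 0.19 for *Prf1* (adjusted p = 0.00161, edgeR) and 0.33 ± 0.12 for *Nkg7* (adjusted p = 0.00339, edgeR). *Gzmm* was higher in both Kaede-green libraries and lower in Kaede-red (adjusted p = 0.0308, edgeR), and *Ctsw* and *Srgn* did not pass (adjusted p of 0.586 and 0.309, edgeR).

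The *Prf1* call depended on thinning, which gives every cell the same weight, and on how cells were split. At 2000 UMIs per cell, with the split as above, it was lost (adjusted p = 0.132, edgeR). With the split as above and all UMIs, the log2 differences of the fit were 0.38 for *Prf1*, 1.76 for *Gzma* and 0.29 for *Nkg7*. When *Gzmk* was read from 2000 UMIs per cell, *Prf1* was lower in cells with *Gzmk*, at -0.27 on the log2 scale (adjusted p = 0.00224, edgeR), while *Gzma* stayed higher at 1.64 (adjusted p = 4.83e-11, edgeR) and *Nkg7* at 0.35 (adjusted p = 0.000638, edgeR). Under this split *Ctsw* passed at 0.19 (adjusted p = 0.0312, edgeR) and *Gzmm* did not (adjusted p = 0.0660, edgeR). The *Gzmm* and *Nkg7* calls were also lost without Kaede-green 2 (adjusted p of 0.317 and 0.0521, edgeR), and that of *Gzmm* with no limits on cells (0.0996), at 2000 UMIs per cell (0.222) and in DESeq2 (0.195). With no library term, 0 of the 6 genes were called and the *Gzma* difference was 1.62 on the log2 scale (adjusted p = 0.378, edgeR). Cells with *Gzmk* held fewer UMIs on average (9046, 11723 and 14628) than cells without (12207, 13955 and 16885). In Kaede-red the summed mast cell list stood at 37.1 CPM in cells without *Gzmk* against 0.307 CPM in cells with it, and its part in the result was not tested.

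Thinned to 2000 UMIs, CD8 T cells with *Gzma* held *Gzmk* more often than those without, in 26.0% against 13.4%, 24.6% against 11.8% and 22.8% against 9.22% of cells. The cells that held both genes numbered 189, 318 and 118, which is 1.5, 1.4 and 2.1 times the product of the separate shares. For *Prf1* and *Gzmk* the same ratio was 1.08 and 0.991 in the Kaede-green libraries and 0.804 in Kaede-red. In NK cells *Gzma* and *Prf1* were found together 1.03 to 1.06 times as often as the product of their shares. Most NK cells held *Gzma*, so this ratio could not be large. *Prf1* was found in 68.8%, 67.1% and 68.2% of NK cells with *Gzma*, against 36.4%, 39.5% and 53.8% of those without.

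NK cells with *Itgam* and without *Itga1* were set against those with *Itga1* and without *Itgam*, the axis along which the study follows NK cells in the tumor. There were 424, 297 and 75 of the first and 291, 420 and 1388 of the second. *Gzma* was 13068, 11516 and 8185 CPM in cells with *Itgam* against 5419, 5477 and 2949 CPM in cells with *Itga1*, with no overlap. *Nkg7* was 3512, 3198 and 2847 CPM against 2480, 2489 and 2127 CPM. These were the 2 of 7 genes called, both higher with *Itgam*, where 31.9% of all genes were called, 15.2% higher and 16.7% lower. The log2 ratio was 1.27 ± 0.20 for *Gzma* (adjusted p = 1.40e-05, edgeR) and 0.43 ± 0.07 for *Nkg7* (adjusted p = 0.00708, edgeR). The *Nkg7* call was lost without Kaede-green 1 (0.172) or Kaede-green 2 (0.0745) and with no library term (0.0747). Cells with *Itgam* were shallower, at 6138, 7739 and 8378 UMIs on average against 12790, 14215 and 25663 with *Itga1*. At full depth the log2 differences of the fit were 1.18 for *Gzma* and 0.34 for *Nkg7*. At 2000 UMIs per cell they were 0.91 for *Gzma* (adjusted p = 4.51e-07, edgeR) and 0.21 for *Nkg7* (adjusted p = 0.0355, edgeR). For these values the cells were still split by the integrins at full depth, and the part of depth in that split was not tested.

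*Prf1* (0.13 ± 0.28), *Ctsw* (0.09 ± 0.21) and *Srgn* (0.15 ± 0.04) were not called along this axis (adjusted p of 0.755, 0.974 and 0.615, edgeR), and neither were *Gzmk* (adjusted p = 0.0773, edgeR) and *Gzmm* (adjusted p = 0.728, edgeR). Without Kaede-red, *Prf1* was higher with *Itgam* by 0.19 (adjusted p = 0.0243, edgeR). The summed level of 6 macrophage or monocyte genes was 14.6, 488 and 210 CPM in cells with *Itgam* against 27.7, 49.6 and 6.93 CPM in cells with *Itga1*. Without the cells that held 2 or more of their UMIs, a choice made after seeing the data, *Gzma* was higher by 1.20 on the log2 scale (adjusted p = 2.06e-05, edgeR) and *Nkg7* by 0.35 (adjusted p = 0.00945, edgeR). With all cells the log2 differences of the fit were 1.18 and 0.34.

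**Figure D4:**
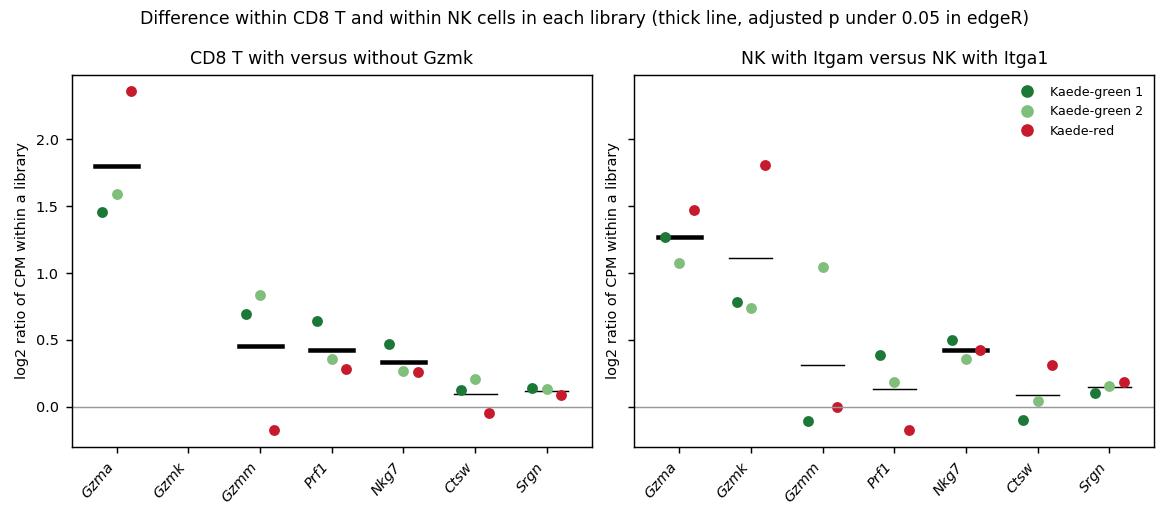
Log2 ratio of CPM within each library between CD8 T cells with and without a Gzmk UMI (left, Gzmk itself left out) and between NK cells with Itgam and with Itga1 (right), 1 point per library. The line is the mean of 3 libraries, thick where the adjusted p was under 0.05 in edgeR, and Gzma has the largest mean ratio in both panels.

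Kaede-red cells, which had been in the tumor for at least 48 h, held less *Gzma* than Kaede-green cells in NK, ILC-like and CD8 T cells. Kaede-red is 1 library, so no test was made between the colors. A ratio was counted where Kaede-red differed from both Kaede-green libraries in the same direction and by more than they differed from each other. By this count 4 of the 7 genes were lower and 1 higher in NK cells, where 40.9% and 22% of all genes with at least 30 UMIs were. In CD8 T cells 4 were lower and 3 higher (23.8% and 23.1% of all genes). ILC-like cells had 1 lower and 1 higher (21.1% and 14.2%), CD4 T cells 1 lower and 2 higher (18.7% and 22.9%), and Treg 1 lower and 1 higher (18.4% and 23.4%), the lower one being *Gzmm*, which at 4, 8 and 4 UMIs is under the minimum for these shares.

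The mean log2 ratio of Kaede-red to Kaede-green for *Gzma* was -1.35 in NK cells, -1.71 in ILC-like cells and -1.36 in CD8 T cells. In CD4 T cells and Treg it did not exceed the difference between the Kaede-green libraries. In CD4 T cells this changed on thinning, which gives every cell the same weight in the sum. Thinned to 2000 UMIs, they held 0.594, 1.15 and 0.293 *Gzma* UMIs per cell, and *Gzma* was then counted as lower in Kaede-red. Kaede-red held 75 NK cells with *Itgam* and 1388 with *Itga1*, and *Gzma* was lower in it within each group, at -0.58 with *Itgam*, -0.89 with *Itga1* and -1.14 with neither. Of all genes, 32.9%, 31% and 40.3% were lower in Kaede-red in these groups. It was also lower within CD8 T cells with *Gzmk* (-0.91, where 23.8% of all genes were lower) and without (-1.74, where 21.7% were). The background *Gzma* level of B cells moved the same way. Its part in the lower values of the T and ILC-like cells was not tested.

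*Gzmk* was lower in Kaede-red CD8 T cells (-0.91), CD4 T cells (-0.75) and NK cells (-2.39). In NK cells it rested on 98 UMIs in Kaede-red, and its share of cells was at the background level. *Gzmm* was lower in CD8 T cells (-2.28), while the ratio of NK cells (0.07) was within the difference between the Kaede-green libraries. *Prf1* moved the other way from *Gzma* in CD8 T cells. It was higher in Kaede-red by 1.23 in CD8 T cells, both with *Gzmk* (1.10, where 21.2% of all genes were higher) and without (1.32, where 23.4% were). In CD4 T cells it was higher by 1.64. Thinned to 2000 UMIs, CD4 T cells held 0.0579, 0.0962 and 0.127 *Prf1* UMIs per cell. The rise over Kaede-green 2 then did not exceed the difference between the Kaede-green libraries, and *Prf1* was not counted. In NK cells *Prf1* was higher by 0.11, and the sign turned at 2000 UMIs per cell (-0.10). Within NK cells it was lower with *Itgam* (-0.23, where 32.9% of all genes were lower) and higher with *Itga1* (0.23, where 15% were higher). *Nkg7* was lower in NK cells (-0.37) and higher in CD8 T cells (0.35). *Ctsw* was higher in ILC-like cells (0.28) and CD8 T cells (0.16). *Srgn* was lower in NK cells (-0.23) and CD8 T cells (-0.10) and higher in CD4 T cells (0.34) and Treg (0.24). Thinned to 2000 UMIs, Treg held 6.08, 5.56 and 6.53 *Srgn* UMIs per cell, and *Srgn* was no longer counted there. The *Gzmm* ratio of Treg (-0.49) rested on 4 to 8 UMIs per library and turned sign with no limits on cells (0.33).

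**Figure D5:**
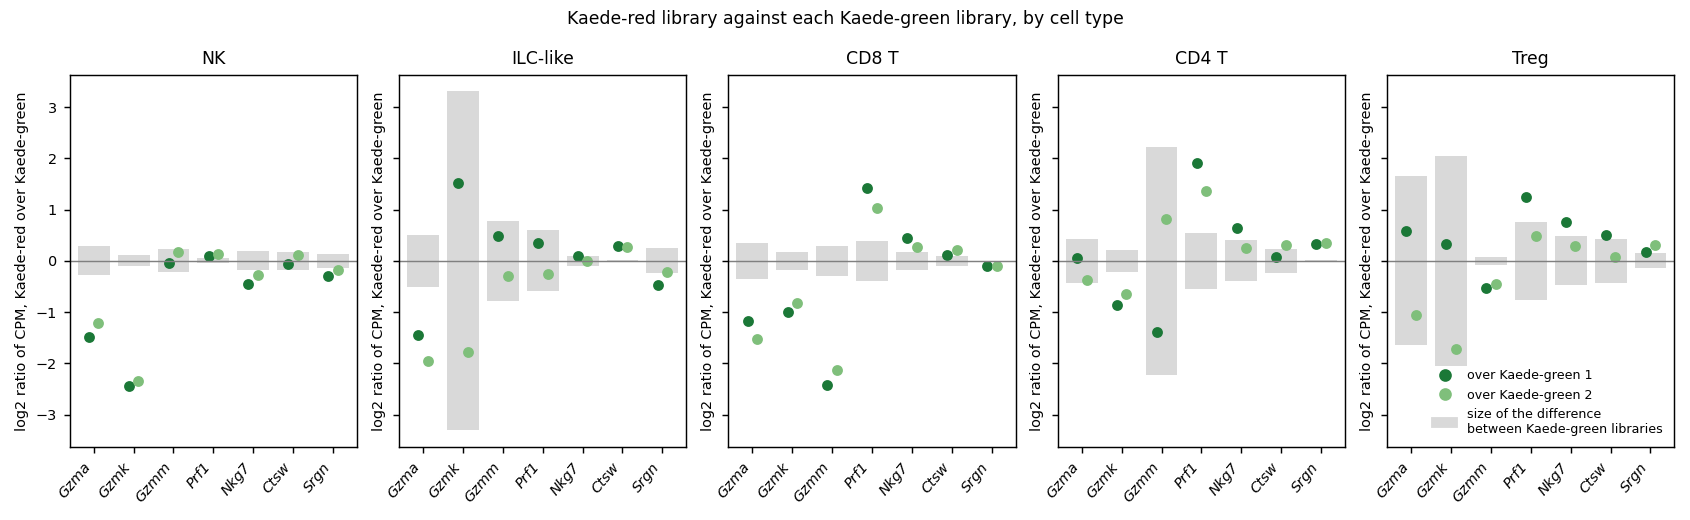
Log2 ratio of CPM (0.5 added to each count) of Kaede-red over each Kaede-green library, by cell type, with a gray band as wide as the difference between the Kaede-green libraries on either side of 0. Points beyond the band on the same side were counted, such as Gzma below and Prf1 above it in CD8 T cells.

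A list of 42 other granule genes, chosen as the members were, was read from the same fits. NK cells held more of 12 and less of 6 of the 39 tested than CD8 T cells, where 13.2% of all genes were higher and 15.3% lower, with a median log2 difference of 0.30 against -0.01 over all genes. Among other granzymes *Gzmc* was higher by 2.95 (adjusted p = 0.00031, edgeR), *Gzmb*, the main caspase-cutting granzyme, by 1.01 (adjusted p = 0.00171, edgeR), and *Gzmf* lower, at -2.33 (adjusted p = 0.0451, edgeR). The inhibitors *Serpinb9* (1.24) and *Serpinb6b* (0.94), which protect cells from their own granule proteases, were higher in NK cells. *Sytl1*, a synaptotagmin-like protein of vesicle docking, was lower (-2.64) and *Sytl3* higher (1.08). ILC-like cells differed from NK cells in 2 of 39, *Sytl1* higher (1.52) and *Gzmb* lower (-1.03), where 2.89% of all genes were called. Reads of the near-identical genes *Gzmd*, *Gzme*, *Gzmf* and *Gzmg* may be split between them.

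CD4 T cells held less of 16 and more of 7 of these genes than CD8 T cells, where 10.2% of all genes were lower and 13% higher, with a median log2 difference of -0.18 against 0.01 over all genes. *Chst12* (-2.14) and *Chst11* (-1.60), sulfotransferases that act on the chondroitin chains of proteoglycans such as serglycin, were lower, while *Srgn* was higher. *Cst7*, which encodes the protease inhibitor cystatin F, was lower, at -1.39 (adjusted p = 7.37e-06, edgeR), and all 3 inhibitors of the list were lower. Treg held more of 8 and less of 4 than CD4 T cells, where 10.6% and 11.2% of all genes were higher and lower, among them *Gzmb* (1.15) and *Cst7* (1.03) higher and *Serpinb9* (-1.04) lower. CD8 T cells with *Gzmk* held more of 7 and less of 2 than those without, where 7.8% and 7.25% of all genes were, with *Gzmb* higher (0.89) and *Gzme* (-0.56) and *Gzmd* (-0.36) lower. In NK cells with *Itgam* 12 of 37 were higher and 9 lower than with *Itga1*, where 15.2% and 16.7% of all genes were. *Gzmc*, *Gzmd*, *Gzme*, *Gzmf* and *Gzmg* were lower there, with log2 differences of -4.37 to -7.54, the reverse of *Gzma*.

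The genes most like each member across the 15 sums are given as a description, by Pearson's r of log2(CPM + 1) among 5113 genes, with no p because sums of 1 library share its depth and free RNA. *Prf1* and *Nkg7* were each other's nearest gene (r = 0.96). *Chst12* followed for *Nkg7* (r = 0.93), then *Dnajb4*, and *Arsb* and *Lrrk1* for *Prf1* (r = 0.91 each). *Ctsw* was nearest to *Klrk1*, the activating receptor NKG2D (r = 0.99), then *Sema4a* and *Atp8b4*. *Gzma* was nearest to *Otulin* (r = 0.96), *Klra9* and *St6galnac4*, and *Gzmk* to *Dip2b* (r = 0.97), *Ap1s2* and *Dbf4*. *Srgn* was nearest to *Sdc4* (r = 0.92), *Tmem173* and *Rcsd1*. For *Gzmm* the nearest were *Rpl37a* (r = 0.81), *Rps10* and *Nr4a2*.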

How the data were processed

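The 3 deposited count tables held UMI counts per gene and cell, made by the authors from 10x 3' reads with Cell Ranger on mm10. The tables were used as deposited, with no normalization. Cells with 1000 to 6000 genes and at most 7.5% mitochondrial UMIs were kept, and doublets were removed with Scrublet in scanpy 1.11.5, which left 9708 to 10614 cells per library. Gene positions are from GENCODE vM21 on GRCm38. Cells were gated by raw UMIs, and raw UMIs were summed per library and cell type. Sums were tested with edgeR 4.0.16 (quasi-likelihood test, TMM, low counts filtered, library as a block, Benjamini-Hochberg adjustment over all genes tested), in 1 fit of 15 sums for cell types and in fits of 6 sums for splits within CD8 T and NK cells. The library is the replicate, and the labels do not say whether libraries came from separate mice, so p-values measure only the spread between these libraries. Sums of 1 library are paired by construction. Between types and splits, values with ± are means of log2 ratios of CPM within a library. Folds, log2 differences and values under other settings are there from the fit, so the 2 measures differ slightly. Colors were compared with no test. The fits were tested on simulated data, and repeated with DESeq2 1.42.0, with no filter, with no library block, without each library, with stricter gates, with other limits on cells and at 2000 UMIs per cell. In the simulated NK and CD8 T sums, 26% of 1.5-fold and 78% of 2-fold changes were called, so small differences can be missed. For the *Gzmk* split these shares were 70% and 78%. Named genes were the 7 members, the largest called changes of the 42 granule genes and the 3 genes most like each member. The members and lists were chosen with earlier results of these data known.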

Additional observations from a re-analysis of the deposited data

Results flagged for a closer look

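For these values Kaede-red and Kaede-green, or cell types, moved in opposite directions, and in each case the difference was not tested, since Kaede-red is 1 library. The log2 ratio of Kaede-red to Kaede-green of *Nkg7* was -0.37 in NK cells and 0.35 in CD8 T cells. That of *Srgn* was -0.23 in NK cells and -0.10 in CD8 T cells against 0.34 in CD4 T cells and 0.24 in Treg. At 2000 UMIs per cell the Treg value was no longer counted.

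Between NK and CD8 T cells the log2 ratio of *Gzmm* was 1.02 in Kaede-red and -1.36 and -1.29 in the Kaede-green libraries, and that of *Nkg7* was -0.42 against 0.48 and 0.13. Between CD4 T and CD8 T cells *Gzma* stood at 0.52 in Kaede-red against -0.73 and -0.65. Between Treg and CD4 T cells *Prf1* stood at -0.20 against 0.47 and 0.68. Both reversals were absent at 2000 UMIs per cell. Thinned Kaede-red cells held 0.293 *Gzma* UMIs per CD4 T cell against 0.636 per CD8 T cell. They held 0.210 *Prf1* UMIs per Treg against 0.127 per CD4 T cell. Between CD8 T cells with and without *Gzmk*, the *Gzmm* ratio was -0.18 in Kaede-red against 0.70 and 0.84, and the *Ctsw* ratio -0.046 against 0.12 and 0.21. Between NK cells with *Itgam* and with *Itga1* the *Prf1* ratio was -0.17 in Kaede-red against 0.39 and 0.18.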

How the results depend on the processing

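Of 444 log2 differences of the 7 genes recomputed under other settings, 378 kept their direction and their side of the threshold, 38 were no longer called, 15 became called and 13 changed sign. Signs were set against the log2 differences of the main edgeR fit, not the mean ratios of CPM given with ± above. For *Ctsw* between NK cells with *Itgam* and *Itga1* that difference was -0.0065, whereas the mean ratio was 0.09. Sums of 1 library form a replicate block. With no replicate block, the counts fell to 2 members higher in NK than CD8 T cells, 1 lower in ILC-like than NK cells, 0 higher with *Gzmk* and 1 higher with *Itgam*, and all genes called to 2118, 184, 2 and 1954, with 1442 for CD4 T against CD8 T cells and 1537 for Treg against CD4 T cells. Leaving out 1 library gave 1 to 5 members higher and 1 to 2 lower in NK than CD8 T cells (1600 to 4947 genes called), 1 to 3 lower in ILC-like cells (70 to 686), 0 to 1 higher and 3 to 5 lower in CD4 T cells (557 to 3420), 0 to 1 higher in Treg (514 to 4035), 2 to 4 higher with *Gzmk* (1049 to 2350), 1 to 3 higher with *Itgam* (1607 to 3109), and 6 to 16 called steps in the order of types. DESeq2 called 498 genes between ILC-like and NK cells, 925 with *Gzmk* and 1808 with *Itgam*. For ILC-like against NK cells, no filter on low counts gave 584 genes, stricter gates 214, sums at 2000 UMIs per cell 145 and only these 2 types 538. Stricter gates gave 1 member higher in Treg. At 2000 UMIs per cell, 1118 genes were called between CD4 T and CD8 T cells, 999 between Treg and CD4 T cells, 1048 with *Gzmk* (2 members higher) and 777 with *Itgam*, and *Gzmm* was too low to be tested between cell types. Splitting by *Gzmk* after thinning gave 3275 genes and 1 member lower, *Prf1* at -0.27. Between colors, stricter gates gave 0 members higher in NK cells and 1 in CD4 T cells. Thinning gave 2 lower in ILC-like cells, 2 lower and 1 higher in CD4 T cells, and 0 lower and 0 higher in Treg. In CD4 T cells *Gzma* was then counted as lower, and *Prf1* was no longer counted as higher. Keeping doublets gave 2 lower in CD4 T cells, and no limits on cells 0 lower in Treg. Signs also turned for *Nkg7* between NK and CD8 T cells with 1 library left out (-0.063 to 0.32), *Prf1* between Treg and CD4 T cells with doublets kept (-0.012), and, between NK cells with *Itgam* and *Itga1*, *Gzmm* with 1 library left out (-0.23 to 0.48), *Prf1* with no filter (-0.0087) and with 1 library left out (-0.10 to 0.19), *Srgn* with no filter (-0.0022), and *Ctsw* with no block (0.0054), with 1 library left out (-0.13 to 0.069), with doublets kept (0.0034), with no limits on cells (0.069) and without cells with macrophage UMIs (0.015, a setting chosen after seeing the data). Between colors the signs of *Prf1* in NK cells (-0.10, thinned) and *Gzmm* in Treg (0.33, no limits on cells) turned. The causes were not tested. Few UMIs limit *Gzmm*, few cells limit ILC-like cells, and the 7 B cells of Kaede-red give little measure of its background.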
